A study of Mus musculus with 12 samples.

Results

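Immediate early genes are the genes that neurons transcribe first after synaptic input, without waiting for new protein. Calcium entry and the MAP kinase cascade act on factors already bound at their promoters, above all CREB and the serum response factor with its partners, and the transcripts appear within minutes and are soon degraded. Most encode transcription factors that drive a later wave of genes, and Fos or Egr1 is commonly stained as a mark of recently active cells.

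From the 24421 genes of the count files, 10 immediate early genes were taken by symbol: Fos, Fosb and Junb of the AP-1 family, the zinc-finger factors Egr1, Egr2, Egr3 and Egr4, the orphan nuclear receptor Nr4a1, the neuron-restricted bHLH-PAS factor Npas4, and Arc, which encodes a protein of the synapse rather than a transcription factor. All 10 were listed. The libraries come from a study of the transcription factor STAT3 in the serotonergic system, in which RNA from the dorsal raphe (DR) of 12 mice was sequenced, 1 library per mouse. The 8 STAT3 KO mice were Sert Cre/+; Stat3 fl/fl, and the 4 control mice were littermates that were Sert Cre/+; Stat3 fl/+. Both groups therefore carried Cre in the serotonin transporter gene and at least 1 floxed Stat3 allele, on a background labelled C57BL/6 x 129, and the question behind the comparison is what changes in the DR when serotonergic cells have no intact Stat3 allele. Adult males and females were in both groups (2 of each sex among controls, 4 of each among STAT3 KO). Cre is active only in cells that use the serotonin transporter gene, whereas the RNA is from a piece of tissue holding all cell types. In such bulk RNA, fewer cells of a type and less RNA per cell cannot be told apart. The hour of death and the handling before it, to which these genes respond, are not given in the sources used here.

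Each library held 24379588 to 29645210 counts on genes, and levels are given as CPM, counts scaled to a library total of 1000000. Stat3 itself lay at 64.4, 65.4, 66.9 and 67.0 CPM in the controls and from 62.9 to 71.0 CPM, with a median of 66.8 CPM, in the STAT3 KO mice. The groups overlapped (log2 fold change -0.0077 ± 0.039 SE, edgeR adjusted p = 0.992), and since most cells of the tissue do not express Cre and the counts do not resolve exons, Stat3 gives no check of the genotype labels. Markers of the labelled tissue were present. The summed level of 5 serotonergic genes (Tph2, Slc6a4, Fev, Slc18a2 and Ddc) was 1300 to 1957 CPM. One library stood apart. In control 4, a male, the sum of 8 markers of forebrain excitatory neurons reached 416 CPM. It ranged over 52.0 to 75.02 CPM among controls 13, 3 and 11 and over 41.3 to 128 CPM among STAT3 KO mice, and 0 of the 8 markers were at 0 throughout. The main comparisons of the members are therefore given with and without control 4. Cerebellar markers were uneven as well and summed to 338 CPM in STAT3 KO 16, 195 CPM in STAT3 KO 10 and 18.0 to 76.9 CPM elsewhere, and choroid plexus markers reached 224 and 227 CPM in STAT3 KO 16 and STAT3 KO 8 against 8.13 to 12.8 CPM in the other libraries.

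The promoters of 5 members that each passed with at least 1 of the others in the correlations over animals are shown as the 250 bases before the transcription start, from RefSeq on GRCm38.p6. CREB binds the palindrome TGACGTCA and, less tightly, the shorter TGACG. Capitals mark TGACG or its reverse complement CGTCA, the one searched motif that each of these windows held. It was also found for Egr2, which passed with Egr4, and for Npas4, which passed with no other member. The windows of Egr2 and Npas4 are not printed. The Fos window is chr12:85473640-85473889 (plus strand), that of Fosb is chr7:19310046-19310295 (minus strand), that of Egr4 is chr6:85513590-85513839 (minus strand), that of Junb is chr8:84978749-84978998 (minus strand) and that of Nr4a1 is chr15:101266596-101266845 (plus strand), and each is printed 5′ to 3′ in the direction of the gene.
Fos: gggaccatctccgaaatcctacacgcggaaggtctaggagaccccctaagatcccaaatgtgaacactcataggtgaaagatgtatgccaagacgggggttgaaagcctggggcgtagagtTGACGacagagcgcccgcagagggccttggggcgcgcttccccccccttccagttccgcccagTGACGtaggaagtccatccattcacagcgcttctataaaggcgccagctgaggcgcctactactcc
Fosb: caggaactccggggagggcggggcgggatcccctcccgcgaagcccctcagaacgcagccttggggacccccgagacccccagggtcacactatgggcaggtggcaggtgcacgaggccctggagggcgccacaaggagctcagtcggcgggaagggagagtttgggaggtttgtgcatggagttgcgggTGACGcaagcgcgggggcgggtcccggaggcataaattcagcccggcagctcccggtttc
Egr4: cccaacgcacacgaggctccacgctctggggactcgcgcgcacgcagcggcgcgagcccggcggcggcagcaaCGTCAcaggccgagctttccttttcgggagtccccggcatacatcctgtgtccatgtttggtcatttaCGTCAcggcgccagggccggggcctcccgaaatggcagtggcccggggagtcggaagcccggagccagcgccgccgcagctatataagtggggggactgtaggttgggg
Junb: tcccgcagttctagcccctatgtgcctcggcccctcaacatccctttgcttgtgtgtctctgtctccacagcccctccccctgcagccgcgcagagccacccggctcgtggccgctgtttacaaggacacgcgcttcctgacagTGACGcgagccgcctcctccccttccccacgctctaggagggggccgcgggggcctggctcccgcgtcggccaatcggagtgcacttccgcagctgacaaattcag
Nr4a1: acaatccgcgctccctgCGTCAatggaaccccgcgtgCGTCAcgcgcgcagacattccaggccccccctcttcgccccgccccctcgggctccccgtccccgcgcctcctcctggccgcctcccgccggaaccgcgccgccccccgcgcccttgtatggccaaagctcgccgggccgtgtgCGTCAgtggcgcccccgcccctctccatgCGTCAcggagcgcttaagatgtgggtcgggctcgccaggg

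RefSeq windows were found for 7 of the 10 members, with 1 window each for these 5 and Npas4 and 5 windows, for different starts, for Egr2. TGACG on either strand was present in 9 of these 11 windows, the exceptions being 2 of Egr2, against 17.8% of the 32544 mouse promoter windows of the same length and 26.7% of the 10550 windows at least as rich in G and C as that of Fos. Counted by gene, with any window sufficing, it was present in 7 of 7 members and 19.9% of 26742 genes. In Fos, the copies began at positions -129 and -66 from the start, ahead of a TATA box (TATAAA) at -33, which 12.3% of windows held and 2.9% of those at least as rich in G and C as that of Fos. In Fosb the copy was at -60, beside an EGR site (GCGGGGGCG) at -50, and Nr4a1 also held an EGR site, at -60; GCGTGGGCG or GCGGGGGCG was in 3.09% of windows and in 8.53% of the GC-rich ones. The full TGACGTCA was in 0 of the 11 windows (1.55% of all and 2.68% of the GC-rich windows), the AP-1 site TGACTCA or TGAGTCA in 0 of 11 (4.46% and 2.56%), and the STAT palindrome TTCNNNGAA in 0 of 11 (7.04% and 3.79%). A serum response element of the CArG type, searched by name, was in 4 of the 5 Egr2 windows (1.48% of all and 0.967% of the GC-rich windows) and in none of the other members' windows. These matches describe letters in a short window. They are not measured binding sites.

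Fos, the AP-1 subunit that pairs with Jun proteins, varied most widely of the AP-1 genes. It was at 23.6, 21.6, 36.5 and 9.15 CPM in controls 13, 4, 3 and 11, and in STAT3 KO from 6.45 CPM (animal 5) over a median of 21.8 to 39.7 CPM (animal 10). The groups covered the same range, and 1 STAT3 KO mouse lay below and 1 above every control. Fosb, which encodes a related subunit known to build up as a stable splice form under repeated stimulation, was at 3.20, 5.49, 4.08 and 1.45 CPM in the same controls and at 1.46 to 5.04 CPM, with a median of 2.62, in STAT3 KO. Low and high animals were largely those of Fos, with control 11, STAT3 KO 6 and STAT3 KO 5 lowest. The counts are per gene and do not separate the splice forms. Junb, which codes for a Jun partner of Fos, was at 16.6, 14.9, 17.1 and 12.1 CPM in controls and from 9.73 over 14.7 to 26.1 CPM in STAT3 KO. Here the 3 highest animals, STAT3 KO 10, 15 and 14, were all STAT3 KO, and the lowest was STAT3 KO 8. Junb overlaps Prdx2 on the opposite strand in the annotation, and whether counting used strand is not given in the sources used here, so its counts may hold reads of that gene.

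Egr1, the most abundant EGR factor, was at 45.7, 81.6, 75.4 and 25.8 CPM in controls 13, 4, 3 and 11, and from 24.3 over a median of 46.1 to 70.9 CPM in STAT3 KO. As with Fos, control 11 and STAT3 KO 5 were lowest and control 3 and STAT3 KO 10 were high, but control 4 was now the highest of all. Egr3, a related factor known from the developing muscle spindle as well as from neurons, was at 2.79, 25.4, 2.43 and 2.10 CPM in the same controls and from 1.72 over 2.74 to 5.50 CPM in STAT3 KO. Control 4 thus stood alone, while the other 3 controls (mean 2.44 CPM ± 0.35 SD) lay within the range of STAT3 KO (3.11 CPM ± 1.36 SD, n = 8). Egr4 was at 1.93, 7.43, 2.24 and 0.610 CPM in controls and from 0.951 over 1.64 to 3.14 CPM in STAT3 KO. Control 4 was again above every other library, and control 11 below. Egr2, known as Krox20 for its part in hindbrain segments and Schwann cells, was near the limit of detection, where 3 counts correspond to 0.101 to 0.123 CPM. It had 40 counts in control 4 (1.44 CPM), 26 counts in STAT3 KO 15 (0.877 CPM), 0 to 9 counts in the other 10 libraries, and with 0 counts in STAT3 KO 14 a level of up to 0.110 CPM remained possible there.

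Nr4a1 was at 11.98, 16.5, 14.4 and 8.01 CPM in controls 13, 4, 3 and 11 and from 8.65 over 11.9 to 20.3 CPM in STAT3 KO, and STAT3 KO 15 and 10 were highest, as they were for Junb. Npas4, which is induced selectively by calcium entry, was at 4.76, 7.04, 3.72 and 3.97 CPM in controls and from 2.74 over 5.07 to 5.97 CPM in STAT3 KO. Control 4 was highest and STAT3 KO 8 lowest. Arc, whose product moves to active synapses and promotes the removal of AMPA receptors, was at 29.8, 36.2, 30.2 and 25.6 CPM in controls and from 25.2 over 28.5 to 32.0 CPM in STAT3 KO. Its highest library was 1.44 times its lowest, against 6.15 times for Fos, and STAT3 KO 5, the animal with the least Fos, had the second highest Arc. Per kilobase of exon, the median levels were ordered Egr1 (10.5 CPM per kb), Arc (9.38), Fos (9.29), Junb (6.47), Nr4a1 (3.46), Npas4 (1.19), Egr4 (0.877), Egr3 (0.598), Fosb (0.472) and Egr2 (0.0588). Each gene overlapped the next in its range over the 12 animals, with the exception of Nr4a1, whose lowest value (2.28 CPM per kb) was above the highest of Npas4 (1.70).

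**Figure D1:**
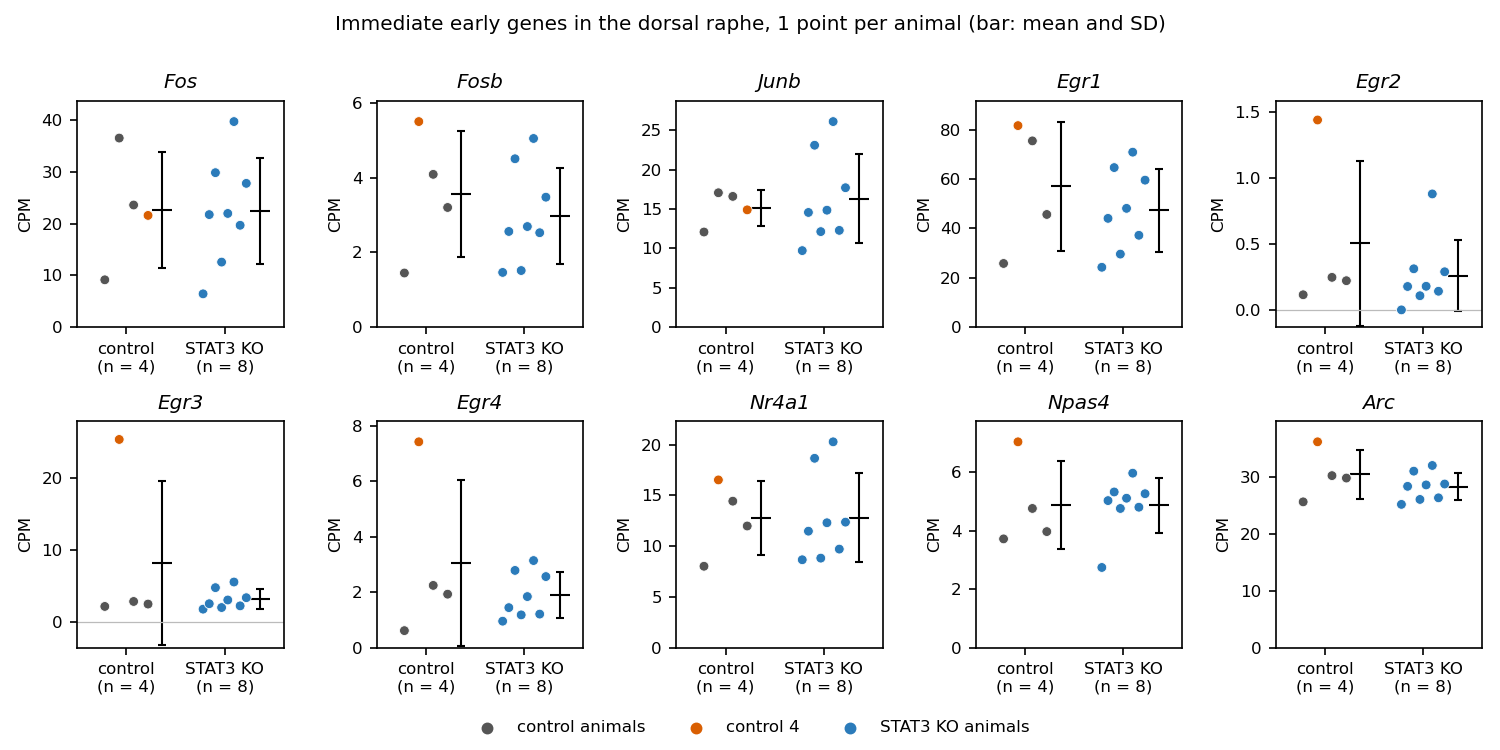
Level of each immediate early gene in CPM (vertical axis, linear, a separate scale per gene) in the 4 control and 8 STAT3 KO mice. Each point is 1 animal, control 4 is orange, and the bar to the right of each group is its mean with the SD; control 4 is the highest of all 12 animals for 7 of the 10 genes.

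Control 4 was the highest library for 7 of the 10 members (Fosb, Egr1, Egr2, Egr3, Egr4, Npas4 and Arc), whereas it was the highest for 6.02% of the 15453 genes that passed the filter on low counts. It was not high in Fos (rank 8 of 12) or Junb (rank 6). The members also varied more between animals of 1 genotype than most genes. Among the 8 STAT3 KO mice, in which control 4 plays no part, the SD of log2 CPM was 0.82 for Fos, against a median of 0.12 over all genes tested. That placed Fos at percentile 99.3 of all genes, Fosb at 98.3, Egr4 at 98.1, Egr3 at 97.6, Egr1 at 97.0 and Junb at 95.5, so that 6 of the 9 members that passed the filter were above percentile 95. Nr4a1 was just under that level, Npas4 at 89.2 and Arc at 51.1. The spread of the AP-1 and EGR factors was thus among the widest, and that of Arc was near the median of all genes. Against genes of similar mean level only, the 6 members were at percentiles 96.7 (Egr4) to 99.96 (Fos) among STAT3 KO mice. Arc was at percentile 69.9 of the 2617 genes of its level.

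Between genotypes, 0 of the 9 members that passed the filter differed at an adjusted p below 0.05 (edgeR quasi-likelihood test), as did 0% of the 15453 genes tested, and DESeq2 (0.03% of its 20026 genes), edgeR's likelihood ratio test and limma-voom also called 0 members. The paper, with its own DESeq2 analysis at the same threshold, did report genes that differed between these groups, and its list is not compared here. At an unadjusted p below 0.05, 1 member was called, Egr3, against 7.66% of all genes. Egr3 averaged 8.17 CPM ± 11.46 SD in controls (n = 4) and 3.11 CPM ± 1.36 SD in STAT3 KO (n = 8), with a log2 fold change of -1.42 ± 0.56 SE (95% interval -2.60 to -0.24, edgeR unadjusted p = 0.0215, adjusted p = 0.615). Reassigning the same animals to genotypes in every possible way (exact permutation test) gave p = 0.410 (two-sided). Without control 4 the log2 fold change was 0.33 ± 0.32 SE with the opposite sign (edgeR adjusted p = 0.821). The lower mean of Egr3 in STAT3 KO thus rested on 1 control library. DESeq2 gave no p for Egr3 because the count of control 4 was marked as an outlier by its Cook's distance.

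The other 8 members had intervals that included 0. The log2 fold change was -0.72 ± 0.46 SE for Egr4, -0.30 ± 0.29 for Egr1, -0.29 ± 0.34 for Fosb, -0.13 ± 0.08 for Arc, 0.08 ± 0.22 for Junb, -0.04 ± 0.37 for Fos, and -0.02 for both Npas4 (± 0.19) and Nr4a1 (± 0.24), with edgeR adjusted p values from 0.766 to 0.997. Egr2 failed the filter. In a fit of all genes without that filter its log2 fold change was -0.97 ± 0.68 SE (edgeR adjusted p = 0.796), and in DESeq2 without control 4 it was 0.41. Of the 9 filtered members 8 were below 0, as were 50.6% of all genes, with a median of -0.13 (all genes -0.0011). Without control 4, 3 were below and 6 above 0, the median was 0.08 (all genes 0.0053), and 0 members reached an unadjusted p below 0.05 (8.96% of genes) or an adjusted p below 0.05 (0.00643% of genes, edgeR). The sign of Fosb, Egr3, Egr4, Npas4 and Nr4a1 turned with that library. The exact permutation test was below 0.05 for 0 of 10 members, against 7.11% of genes, and in 0 of 10 did the 2 groups not overlap, against 0.492% of genes. For Fos the 95% interval ran from -0.83 to 0.75 on the log2 scale, so differences of either sign within these limits were compatible with the data, whereas for Arc it ran from -0.31 to 0.04.

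**Figure D2:**
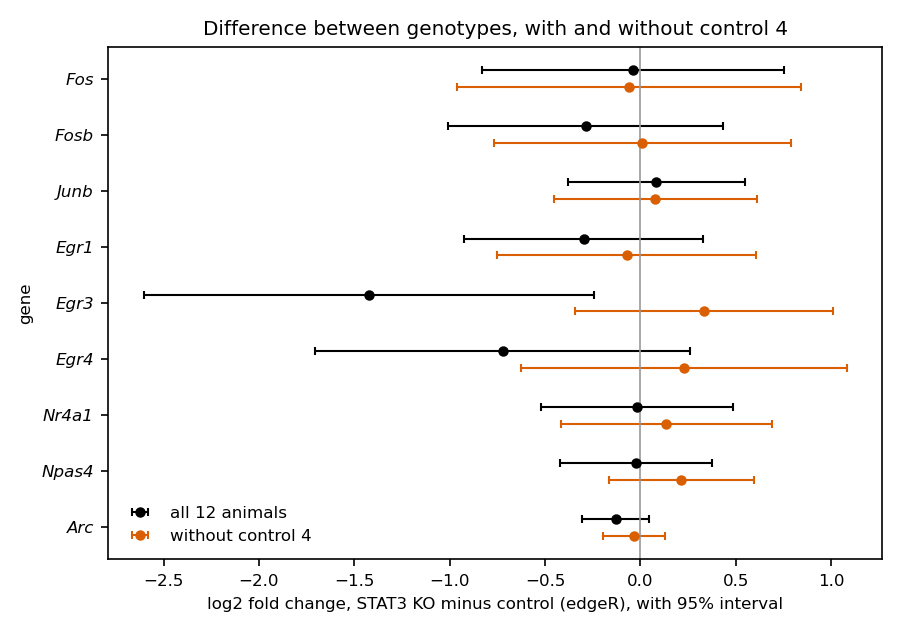
Log2 fold change of STAT3 KO against control (horizontal axis, edgeR) for the 9 members that passed the filter on low counts, with all 12 animals (black) and without control 4 (orange). Points are estimates and bars 95% intervals; the interval of Egr3 with all animals, -2.60 to -0.24, is the only one shown that leaves out 0.

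Part of the members rose and fell together across animals. Pearson's r of log2 CPM was above 0 in 45 of the 45 pairs over the 12 libraries, with a median of 0.57 (Spearman's rho 0.57), and 15 pairs passed an adjusted permutation p of 0.05 over the 45 pairs (100000 resamples, two-sided). Without control 4, r was above 0 in 44 pairs with a median of 0.50, and 10 pairs passed. With the genotype means subtracted 15 passed, and within the 8 STAT3 KO animals 7 did (exact permutation test), and the pairs that passed in each of these settings were among the 15. The points share the tissue piece, and the members' levels are counted within 1 library each. Total counts (r = 0.12 with Fos, permutation p = 0.702) and the share of reads on genes (r = 0.30, p = 0.343) did not pass a test of relation with Fos.

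Fos, Fosb, Egr1 and Egr4, a group named after its values were seen, passed in all of their 6 pairs, with r from 0.68 to 0.96 over 12 libraries and from 0.89 to 0.96 without control 4. Fosb and Egr1 gave r = 0.96 (rho = 0.90, permutation p = 2e-05, adjusted p = 0.00045), and r = 0.94 without the 2 animals farthest from the median of Fosb. Fos and Egr1 gave r = 0.89 (rho = 0.83, permutation p = 9e-05, adjusted p = 0.00101) and r = 0.80 without the 2 animals lowest in Fos. For Fos and Egr4, r = 0.68 (rho = 0.79, permutation p = 0.0161, adjusted p = 0.0484) fell to 0.43 without those 2 animals, STAT3 KO 5 and control 11, but rose to 0.89 when control 4 alone was left out. Nr4a1 passed with each of these 4, with r from 0.72 (Fos, adjusted permutation p = 0.0257) to 0.85 (Egr1, adjusted p = 0.00416), and without control 4 with Fos, Egr1 and Egr4 but not with Fosb (r = 0.72, adjusted p = 0.0586). Junb passed with Nr4a1 alone (r = 0.88, rho = 0.87, permutation p = 0.00017, adjusted p = 0.00153), with r = 0.78 without the 2 animals highest in Junb and r = 0.94 without control 4. With the exception of Egr1, these are the members whose promoter windows are printed above.

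Egr3, Egr2 and Arc passed in 4 pairs over the 12 libraries and in 0 without control 4. Egr3 and Egr2 gave r = 0.82 (rho = 0.68, permutation p = 0.00061, adjusted p = 0.00392), Egr3 and Egr4 r = 0.82 (rho = 0.73, permutation p = 0.00103, adjusted p = 0.00515), and Egr3 and Arc r = 0.79 (rho = 0.66, permutation p = 0.00404, adjusted p = 0.0165). The fourth pair was Egr2 and Egr4 (r = 0.76, rho = 0.80, permutation p = 0.00622, adjusted p = 0.0215), at 0.57 without control 4 (adjusted p = 0.155). With a prior count of 0.5 on the log scale it was at 0.69 and no longer passed (adjusted permutation p = 0.0542). Without control 4 the first 3 pairs were at 0.70, 0.64 and 0.53, with adjusted permutation p values of 0.0586, 0.116 and 0.218, and within the 8 STAT3 KO libraries at 0.71, 0.70 and 0.59. Over 12 libraries, without the 2 animals farthest from the median the first 3 pairs were at 0.62, 0.61 and 0.40. Npas4 passed with 0 of its 9 partners in either set, and its r with Fos was 0.08 over 12 libraries and 0.07 without control 4. Fos and Arc, both used as marks of active neurons, gave r = 0.17 (rho = 0.31, permutation p = 0.584) and 0.19 without control 4. STAT3 KO 5 had the least Fos (6.45 CPM) and the second highest Arc (32.0 CPM), whereas control 11 was low in both. Without these 2 animals, r was 0.39, and 0.74 with control 4 left out as well.

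**Figure D3:**
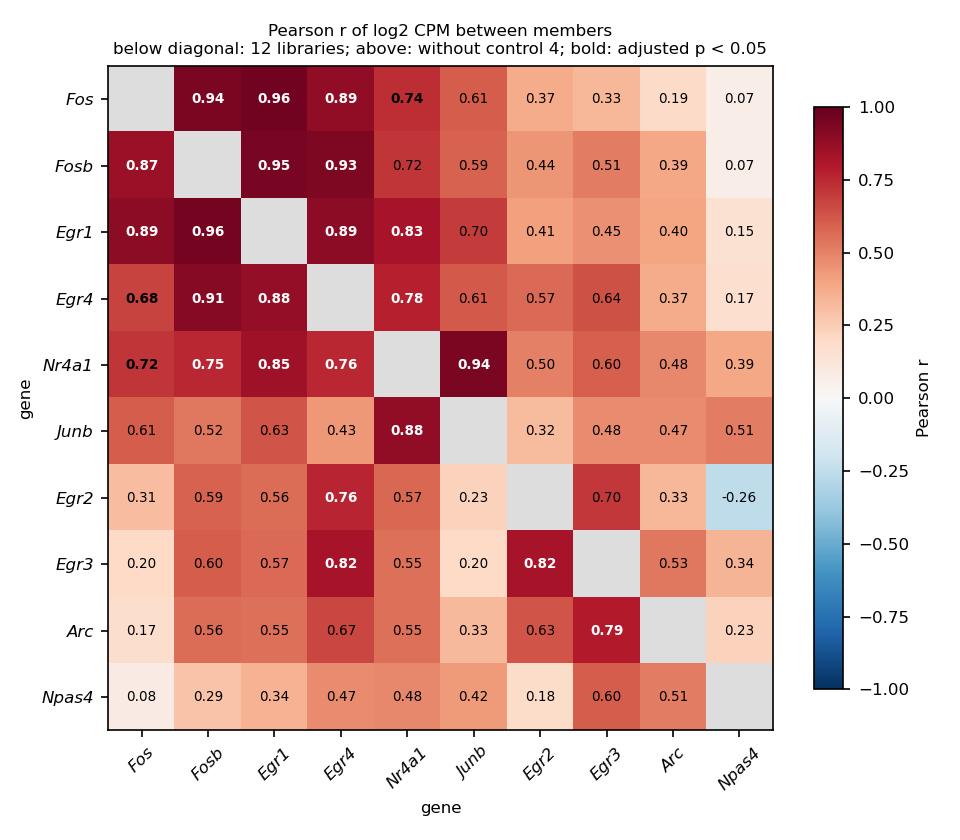
Pearson's r between members over libraries, from log2 CPM, with all 12 libraries below the diagonal and 11 libraries without control 4 above it; colour runs from -1 (blue) to 1 (red) and bold numbers mark an adjusted permutation p below 0.05. The block of Fos, Fosb, Egr1 and Egr4 is 0.68 to 0.96 below the diagonal and 0.89 to 0.96 above it, and the row of Npas4 holds no bold number.

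The forebrain excitatory markers had r above 0 with all 10 members over the 12 libraries, and r varied widely in size. Over the 12 libraries, 4 of the 10 members passed an adjusted permutation p of 0.05 with the summed level of the 8 markers: Egr3 (r = 0.97, rho = 0.87, permutation p = 4e-05, adjusted p = 0.0004), Arc (r = 0.81, rho = 0.66, p = 0.00257, adjusted p = 0.0128), Egr2 (r = 0.74, rho = 0.46, p = 0.0082, adjusted p = 0.0262) and Egr4 (r = 0.73, rho = 0.52, p = 0.0105, adjusted p = 0.0262). On Spearman's rho only Egr3 passed after adjustment, and the adjusted permutation p of rho was 0.114 for Arc, 0.213 for Egr2 and 0.210 for Egr4. Without control 4 only Egr3 passed, with r = 0.91 (rho = 0.83, permutation p = 0.0002, adjusted p = 0.002), and STAT3 KO 15 and 16, the STAT3 KO mice with most of these markers (112 and 128 CPM), also had the most Egr3 (5.50 and 4.71 CPM). In the 11 libraries without control 4, Arc was at 0.58 (adjusted permutation p = 0.331), Egr2 at 0.47 and Egr4 at 0.40. With STAT3 KO 15 and 16 left out as well, r was 0.78 for Egr3, 0.66 for Arc, 0.27 for Egr2 and 0.0084 for Egr4. Fos had the lowest r, 0.09 (rho = 0.25, permutation p = 0.780) over 12 libraries and 0.09 without control 4. Between these, over the 12 libraries, were Npas4 at 0.62 (permutation p = 0.0485, adjusted p = 0.097), Fosb at 0.52, Nr4a1 at 0.48, Egr1 at 0.47 and Junb at 0.18. Whether members differed from each other in this relation was not tested. The part of forebrain tissue in the levels of Egr3 was not tested beyond these values.

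**Figure D4:**
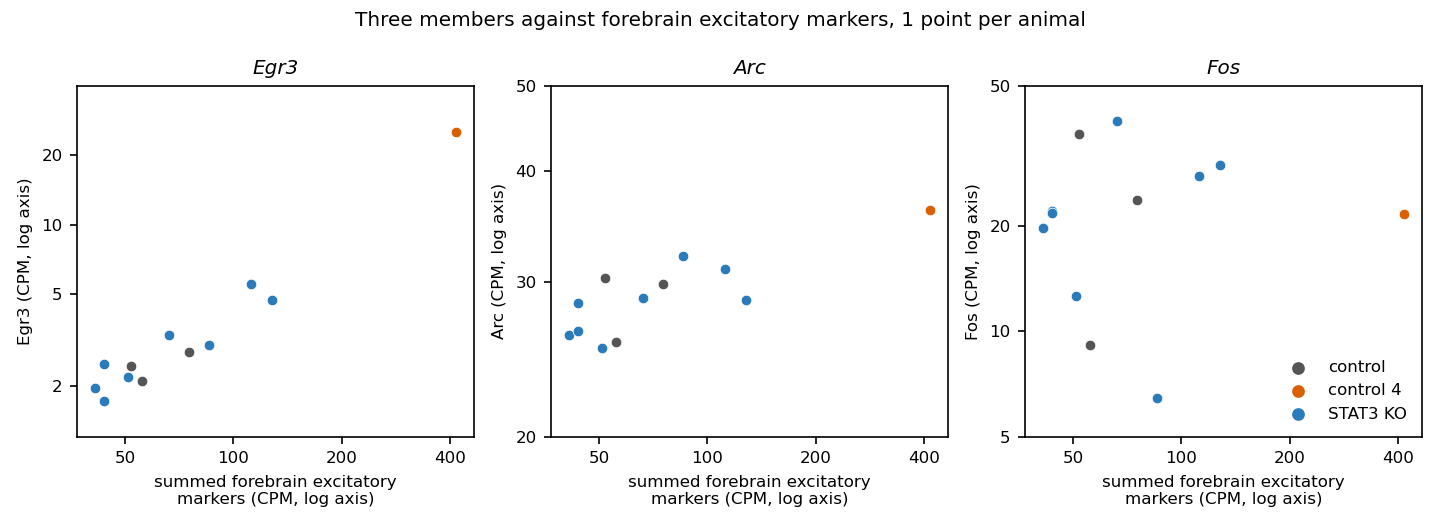
Level of Egr3, Arc and Fos (vertical axes, CPM, log scale) against the summed CPM of 8 forebrain excitatory markers (horizontal axis, log scale) in the 12 mice, with control 4 in orange, other controls grey and STAT3 KO blue. Egr3 follows the markers also among the 11 mice other than control 4 (r = 0.91), whereas Fos spans 6.45 to 39.7 CPM at marker sums below 128 CPM.

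Cerebellar markers, highest in STAT3 KO 16 and 10, gave r = 0.57 with Fos (rho = 0.54, permutation p = 0.0492, adjusted p = 0.467 over the 10 members) and 0.50 with Fosb. Without control 4, r was 0.70 with Fosb (unadjusted permutation p = 0.0182), 0.61 with Egr4, 0.60 with Fos and 0.60 with Egr1, the 4 genes that passed with each other, each with an adjusted permutation p of 0.133. After adjustment 0 of the 10 members passed, with or without control 4. With STAT3 KO 10 and 16 left out of the 12 libraries, r was 0.44 with Fos and 0.21 with Fosb, and with control 4 left out too it was 0.49 with Fos, 0.45 with Fosb, 0.49 with Egr1 and 0.28 with Egr4. In the 7 libraries with under 50 CPM of these markers, 10 pairs of members passed (exact permutation test on Pearson's r, and 0 pairs on Spearman's rho), 8 of them among the 15 above. None was a pair with Fos (r = 0.83 with Fosb, 0.85 with Egr1 and 0.71 with Egr4, adjusted p = 0.0756, 0.0611 and 0.119, exact permutation test), whereas the pairs among Fosb, Egr1 and Egr4 all passed. Control 4 was among the 7 libraries. Without it and STAT3 KO 15, r of Egr3 and Egr4 fell from 0.91 to 0.21 in the 5 libraries left, whereas Egr1 and Egr4 were at 0.88. The part of cerebellar tissue in the levels of these genes was not tested further.

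**Figure D5:**
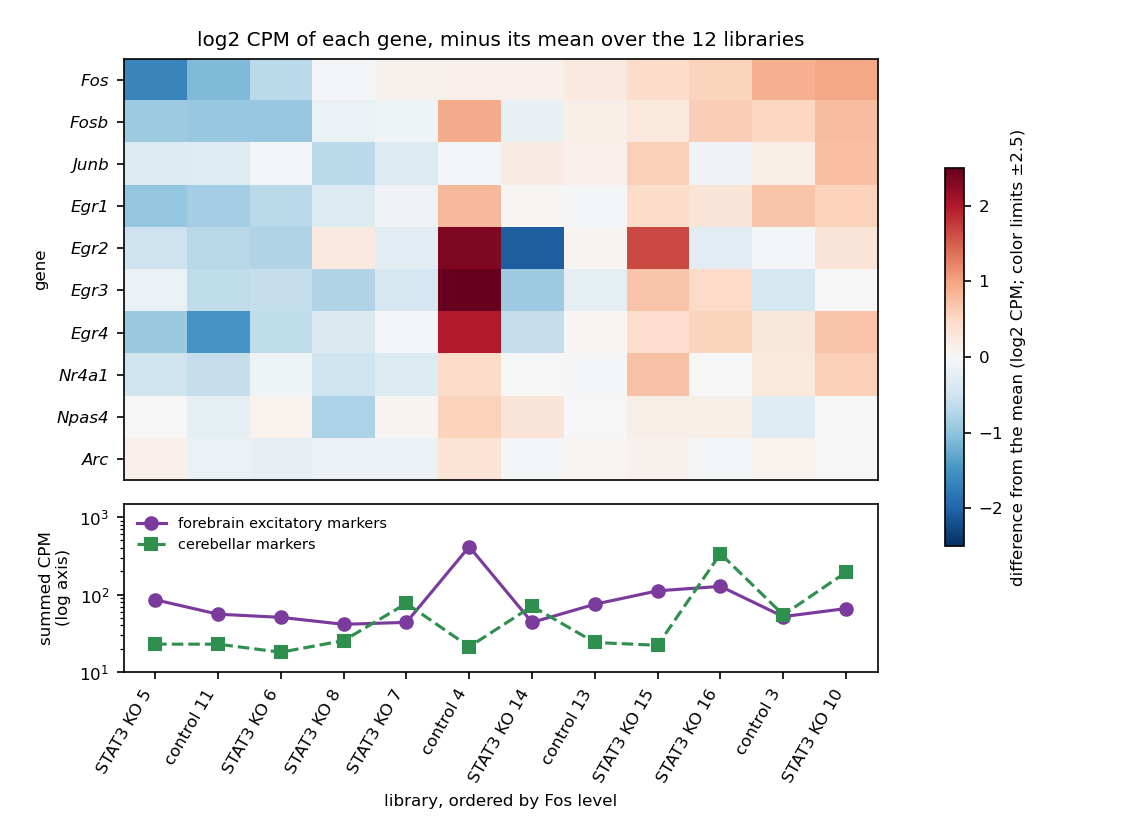
Upper panel, log2 CPM of each member minus its mean over the 12 libraries (red above, blue below, colour limits 2.5 on either side), with libraries ordered by Fos level from left to right. Lower panel, summed CPM of forebrain excitatory markers (circles) and cerebellar markers (squares) in the same libraries on a log axis; the dark red column of Egr2, Egr3 and Egr4 is control 4, where forebrain markers reach 416 CPM.

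Other genes of the same response were examined as lists. Of 30 further rapid primary response genes, 0 passed an adjusted p of 0.05 between genotypes and 1 was lower at an unadjusted p below 0.05 (edgeR), against 4.05% of all genes lower and 3.61% higher. This was Gadd45b, which encodes a stress protein active in DNA demethylation, with a log2 fold change of -0.20 ± 0.08 SE (edgeR adjusted p = 0.615) and -0.24 without control 4. The largest estimates were 0.41 for Amigo3, 0.40 for Dusp5, which encodes a MAP kinase phosphatase, and 0.31 for Atf3, and none of these reached an unadjusted p of 0.05. The median of the list was -0.05, and -0.02 without control 4. Of 11 later activity-induced genes, Homer1, which encodes a scaffold of the postsynapse, was lower at an unadjusted p of 0.00556 (log2 fold change -0.31 ± 0.10 SE, edgeR adjusted p = 0.615). It was at 40.3 CPM in control 4, 28.0 to 29.6 CPM in the other controls and 21.9 to 28.7 CPM in STAT3 KO, and the estimate was -0.17 without control 4 (edgeR unadjusted p = 0.0473, adjusted p = 0.551). Nptx2 at -0.24 and Inhba at 0.22 followed, both with unadjusted p above 0.05. Without control 4, Nptx2 was at -0.04 and Inhba, which encodes an activin subunit, at 0.53 (edgeR unadjusted p = 0.0286, adjusted p = 0.489). The median was -0.02, and 0.10 without control 4.

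Of 17 upstream factors, kinases and EGR corepressors, 0 passed after adjustment and 2 were lower at an unadjusted p below 0.05 (edgeR), among them Mef2c (-1.12 ± 0.44 SE, edgeR adjusted p = 0.615). Mef2c, a calcium-responsive factor rich in cortical neurons, was at 102 CPM in control 4 and at 14.4 to 16.02 CPM in the other controls, against 11.4 to 24.2 CPM in STAT3 KO. Without control 4 its estimate was 0.16, so its direction, like that of Egr3, hung on that library. Camk2a, the forebrain-rich kinase, had the second largest estimate in the list, -0.45 with control 4 (470 CPM) and 0.32 without it (edgeR unadjusted p = 0.014, adjusted p = 0.413), and Nab1, a corepressor that binds EGR proteins, had the third, -0.13 (-0.15 without control 4). The median of the list was -0.03, and 0.0073 without control 4.

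Across the 12 libraries, the genes most like Fos in their pattern, outside the members, were Nr4a3 (r = 0.94), a nuclear receptor close to Nr4a1, Fosl2 (0.91), which encodes the AP-1 subunit Fra-2, Spty2d1 (0.90), Dusp4 (0.87), which encodes a MAP kinase phosphatase, and Spry4 (0.87), which encodes a feedback inhibitor of growth factor signalling. Nr4a3 ran from 2.22 CPM in STAT3 KO 5 to 12.9 CPM in STAT3 KO 16, and all 5 were lowest in STAT3 KO 5, the animal lowest in Fos. Of the 30 further rapid genes, 7 had r of at least 0.7 with Fos (Fosl2, Nr4a3, Ier2, Dusp1, Sik1, Per1 and Tiparp), as did 0.848% of all genes, and the same 7 did without control 4. Of the later genes 0 of 11 did, and of the upstream list 1 of 17, Elk4, an SRF partner. With Junb, 4 of the 30 rapid genes did (Sik1, Btg2, Dusp1 and Ier2), against 0.634% of genes. The genes most like Arc were Prickle1 (0.86), Myoc (0.86), Trpc6 (0.86), Rtn4r (0.86) and Gng7 (0.85), and all 5 were highest in control 4. Without that library none of them was among the 5 nearest to Arc, whereas 4 of the 5 nearest to Fos were unchanged.

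Males and females were compared over both genotypes. Of the 9 members tested, 0 passed at an adjusted p below 0.05 (0.0841% of genes) and 0 at an unadjusted p below 0.05 (7.2%) between 6 males and 6 females (edgeR quasi-likelihood test). Fos had a median of 26.7 CPM in females and 20.6 CPM in males, with a log2 difference, males minus females, of -0.48 ± 0.34 SE (edgeR adjusted p = 0.784). Without control 4 this was -0.55 ± 0.38 SE, and the lowest unadjusted p was 0.0536, of Fosb at -0.64 ± 0.30 SE. A difference of the genotype effect between the sexes was found in 0 members after adjustment (0% of genes) and in 1, Egr3, before it (5.49% of genes), with an interaction of -2.63 ± 0.98 SE (edgeR unadjusted p = 0.0185, adjusted p = 0.907). Control 4 is 1 of 2 control males. Without it the interaction was 0.08 ± 0.69 SE (edgeR unadjusted p = 0.915), and 0 members were below an unadjusted p of 0.05. Without the other control male, control 11, that arm is control 4 alone, whose spread is then assumed to be that of the other groups, and Egr3 was 1 of 37 genes called (-3.51 ± 0.59 SE, edgeR adjusted p = 0.0342).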

How the data were processed

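The authors sequenced DR RNA from 4 control and 8 STAT3 KO mice as separate libraries, and genotype, sex and animal number were taken from the sample labels. The deposited files hold raw counts per gene symbol, which the authors made without normalisation. The submitters' processing notes name bcl2fastq, STAR 2.5.0b, DESeq2 1.6.3 and mm10. The read counter, the annotation and the use of strand are not given in the sources used here. Lines for reads on no gene or on several genes were left out of library totals (84.2 to 86.1% of all counts in a file were on genes). Floors of 3 counts cover counting error only.

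Genes were kept by filterByExpr (minimum count 10, minimum total 15), which left 15453 genes, and tested with edgeR 4.0.16 (quasi-likelihood test, TMM, Benjamini-Hochberg over all genes) for genotype, and with sex and their interaction in separate fits. DESeq2 1.42.0, the likelihood ratio test and limma 3.58.1 (voom with quality weights) were alternatives, with another normalisation, other filters, sex added as a covariate, or 1 animal at a time removed. Single members were also compared by the two-sided exact permutation test on log2 CPM (prior count 2), which cannot go below p = 0.00202. Correlations are of log2 CPM with permutation p values (100000 resamples, smallest p 1e-05, all orders for 8 or fewer libraries), adjusted over the pairs or members compared. On simulated counts the genotype test found 88.9% of 199 altered genes and 3.80% of what it called was false, against 4.84% with limma-voom, 10.6% with the likelihood ratio test and 13.8% with DESeq2. Exon lengths and overlaps are from GENCODE on GRCm38, promoter windows and motif shares from RefSeq, computed with Python 3.11.15 and scipy 1.17.1. The members, lists and marker genes were chosen with earlier results of these data known. Named are all members, Stat3, the genes of each list with an unadjusted p below 0.05 or among its 3 largest changes, and the 5 genes nearest to Fos and to Arc, with the exception of 1 gene of the upstream list that is not reported here. Pairs singled out, genes counted at r of at least 0.7 and the cerebellar level of 50 CPM were chosen after values were seen. No column of per-sample values was set aside.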

Additional observations from a re-analysis of the deposited data

Results flagged for a closer look

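In groups of 4 and of 8 animals, the highest or lowest animal was set against the rest by the size of its gap relative to the range of the group (Dixon's test, 95%), for the members, Stat3 and the summed cell type markers. This was done for 40 groups of values, of which 3 held an animal apart, and chance gives about 1 in 20, or 2. Egr3 in control 4 was 4.69 on the log2 CPM scale, with the other controls at 1.13 to 1.52. Npas4 in STAT3 KO 8 was 1.49, below the other STAT3 KO mice at 2.25 to 2.60. The summed cerebellar markers in control 3 were 5.77, above the other controls at 4.40 to 4.59. The summed forebrain excitatory markers in control 4 (416 CPM) were examined in the same way and were not flagged.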

How the results depend on the processing

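The count of members called between genotypes was 0 with every tool, filter and normalisation tried and with each animal left out. At an unadjusted p below 0.05 it was 0 with DESeq2, limma-voom, sex as a covariate and DESeq2 without control 4 (chosen after the data were seen), and 0 (without control 4) to 3 (without control 11: Egr3, Egr4 and Arc) with 1 animal left out. The share of all genes below that level without control 11 was not computed, so the 3 are not read as an excess. Over all genes, 0 were called with all animals by the quasi-likelihood test, 6 by DESeq2, 3 by the likelihood ratio test, 0 to 1 with 1 animal left out and 141 by DESeq2 without control 4. On simulated counts, drawn with no library set apart, the share of false calls was 13.8% for DESeq2, 10.6% for the likelihood ratio test and 3.80% for the quasi-likelihood test. Simulated counts without a library like control 4 cannot tell whether the calls above are false, and why the tools differed was not tested. Members with an exact permutation p below 0.05 numbered 0 to 1 (Arc, without control 11) with 1 animal left out. With 1 animal left out, the log2 fold change ran from -0.30 to 0.30 for Fos, -0.54 to 0.0098 for Fosb, -0.045 to 0.17 for Junb, -0.53 to -0.07 for Egr1, -1.73 to 0.33 for Egr3, -1.06 to 0.23 for Egr4, -0.20 to -0.03 for Arc, -0.13 to 0.22 for Npas4 and -0.18 to 0.14 for Nr4a1. DESeq2 without control 4 also turned Fosb (0.0077), Egr2 (0.41), Egr3 (0.33), Egr4 (0.22), Npas4 (0.21) and Nr4a1 (0.13), limma-voom turned Fos (0.12), Npas4 (0.10) and Nr4a1 (0.11), and sex as a covariate turned Fos (0.0079).

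Between the sexes, 13 genes were called, 24 by DESeq2 and 10 to 13 with 1 animal left out, and members at an unadjusted p below 0.05 numbered 0 to 1 (Fos, without STAT3 KO 5). For the interaction, DESeq2 called 2 genes, and leaving out 1 animal gave 0 to 37 genes, 0 to 1 members called and 0 to 2 members at an unadjusted p below 0.05, with the upper values without control 11. Within the 8 STAT3 KO animals 7 pairs of members passed, against 15 over 12 libraries (14 with a prior count of 0.5, which lost the pair of Egr2 and Egr4), and without control 4 the members tied to forebrain markers fell from 4 to 1. Control and STAT3 KO mice were littermates, but the litter of each animal is not given in the sources used here, so no analysis by litter was possible. With 4 controls, of which 1 stands apart, small differences in the widely varying members could not be seen.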
